A study of Danio rerio with 21 samples.

Results

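The tessellated lymphoid network (TLN) of adult zebrafish (Danio rerio) was sampled in 2 single-cell RNA-seq libraries, 1 from fish labelled early, at 1 day post fertilization (dpf), and 1 from fish labelled late, at 3 dpf. After filters on UMIs (unique molecular identifiers, counted molecules), genes and mitochondrial UMIs, 25324 cells of the early and 21775 of the late library were kept, together 47099 of the 121254 cells of the 8 adult libraries. Cells were called erythroid when haemoglobin genes gave at least 50% of their UMIs, and all others were described apart from them. The rule gave 3800 erythroid and 21524 other cells with the early label, and 1501 erythroid and 20274 other cells with the late label.

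The series holds 21 libraries and asks, per its title, how developmental timing sets the lineage bias of blood stem and progenitor cells. Progenitors carried a heritable mCherry mark placed early or late in development, and mCherry-positive cells were sorted from tissue of fish 4 months old. Both TLN groups share the mark, the tissue and the age, and differ by the day of labelling. The driver of the mark, the strain and the number of fish pooled are not given in the sources used here. Kidney marrow, thymus and intestine of the same age and labels are used only side by side.

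The TLN is a network of lymphocytes in the epidermis over the scales, where T cells and innate lymphocytes move and survey the skin. Zebrafish red cells keep their nucleus and still carry RNA in the circulation. In maturing red cells haemoglobin comes to make up most of the RNA, and in mammals ribosomes and mitochondria are lost. Red cell genes were grouped here into sets for globin, haem synthesis, iron handling, membrane proteins and the clearing of organelles.

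The early TLN library held 62255221 UMIs and the late one 42082370. The median erythroid cell had 7233 UMIs early and 6220 late, and the median other cell 1062.5 and 1278. The libraries shared 164 barcodes, 0.648% of those of the early library. Each label has 1 library, so nothing below has a replicate check. The label, the library, the fish and the sort cannot be told apart, and intervals cover counting error only.

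Erythroid cells made up 15.0% of the TLN cells with the early label (95% Clopper-Pearson interval 14.6 to 15.5) and 6.89% with the late label (6.56 to 7.24). The difference, early minus late, was 8.11 percentage points (7.56 to 8.67). In kidney marrow, the adult blood-forming organ, the order was opposite, with 6.37% early and 9.26% late, a difference of -2.89 points (-3.35 to -2.43). The kidney marrow order turned with the threshold: at 60% haemoglobin or more, 1510 of 28900 early and 1 of 24994 late cells remained there, so that the early label was the higher one as in the TLN, which had 2362 and 484 such cells. The difference between the tissues was not tested. Thymus held 55 early and 2 late erythroid cells, and intestine 4 and 0.

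The haemoglobin genes of the rule also took a larger median share of UMIs in erythroid cells with the early label. The median was 61.9% of UMIs early and 57.9% late, and the highest cell reached 75.3% and 69.8%. Of the erythroid cells, 62.2% of the early and 32.2% of the late ones had at least 60% haemoglobin. In kidney marrow these shares were 82.0% and 0.0432%. The early library was the higher one in both tissues. The rule leaves out si:ch211-5k11.8, which took 13.9% of all erythroid UMIs early and 18.8% late in the TLN. Summed over erythroid cells, the genes of the rule took 63.6% of UMIs early and 59.4% late. With si:ch211-5k11.8 added, the early library was no longer the higher one in these summed TLN cells. In kidney marrow erythroid cells the genes of the rule took 66.7% of UMIs early and 54.1% late. There si:ch211-5k11.8 took 7.64% and 13.9%, and the early library stayed the higher one with it added.

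**Figure D1:**
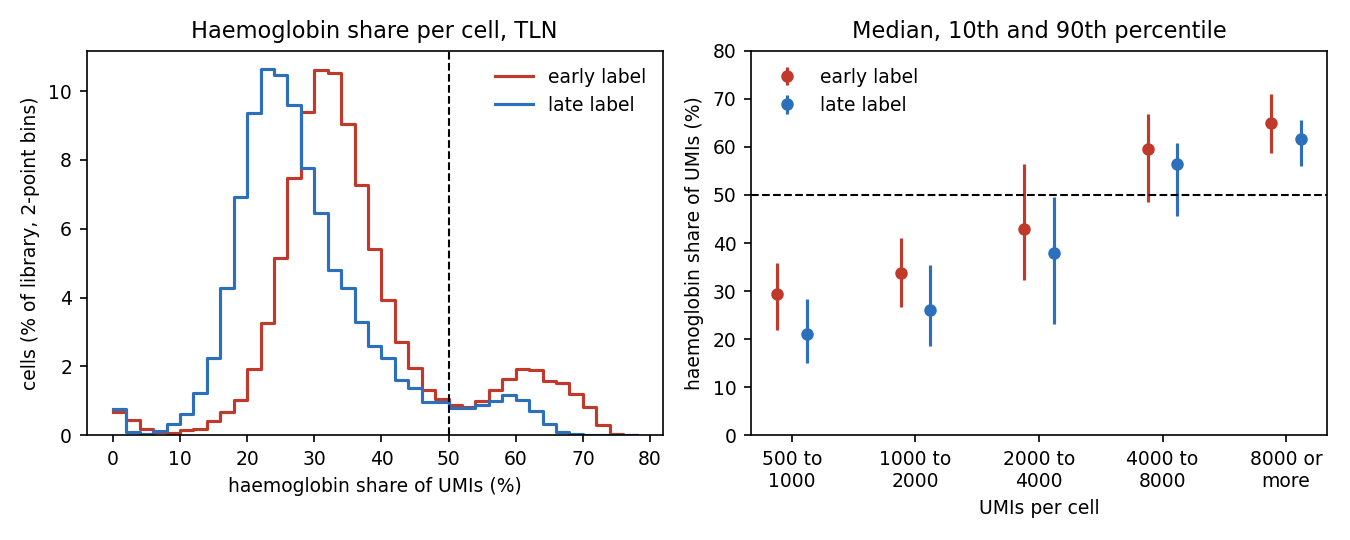
Distribution of the haemoglobin share of UMIs (percent, x axis) over the TLN cells of each library (percent of cells, y axis), with the 50% rule marked. The right panel gives the median haemoglobin share in 5 bins of UMIs per cell, with the 10th and 90th percentiles, over cells with at least 5% haemoglobin. Each library has a large peak below the rule and a small one above it, and the early library (15.0% erythroid) lies to the right of the late one (6.89%).

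The 50% rule fell in the dip between 2 peaks of the histogram of haemoglobin share. Among cells with at least 5% haemoglobin it parted cells with many UMIs from cells with few, rather than red cells from other types. Within this set the haemoglobin share was higher in cells with more UMIs. Early cells of the set with 500 to 1000 UMIs had a median haemoglobin share of 29.3%, and those with at least 8000 UMIs had 64.9%. Late cells had 21.1% and 61.7% in the same bins, and the early library was higher in each of the 5 UMI bins. Cells with under 5% haemoglobin, left out of these bins, numbered 319 early and 184 late. Their medians were 7330 and 10011 UMIs, so the rise of haemoglobin with UMIs does not hold for them.

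Across genes, 3120 passed a mean of 20 CPM (counts per 1000000 UMIs outside haemoglobin) in erythroid cells. Of these, 73 (2.34%) were 2-fold or more higher with the early label, and 21 (0.673%) 2-fold or more lower. The median log2 ratio of all 3120 genes was 0.01, with quartiles of -0.31 and 0.34. The split depends on the scaling. It was 19 higher and 10 lower with CPM over all UMIs, which moved the median of all genes to -0.12, and 121 and 12 with median-of-ratios scaling, which moved it to 0.12. Leaving out zgc:163057 and si:ch211-5k11.8 from the total gave 58 higher and 164 lower, with a median of -0.18. In the main total si:ch211-5k11.8 gave 4474658 of 11734529 UMIs early and 2032487 of 4391455 late.

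The gene that stood furthest apart in erythroid cells was bnip4, a member of the BNIP3 family, whose members act in the removal of mitochondria. Its level was 107 CPM with the early label (95% Poisson interval 101 to 113) and 1.82 CPM with the late label (0.786 to 3.59), a log2 ratio of 4.03 on the CPM + 5 scale. A bnip4 UMI was found in 966 early and 8 late erythroid cells. Kidney marrow erythroid cells had 98.1 CPM early and 1.40 CPM late, a log2 ratio of 4.01, so the levels lay apart by a like amount in both tissues. The other cells of the intestine had 6.72 and 0.427 CPM, and those of the thymus 9.82 and 0 CPM.

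Of the other named genes with higher levels early, 3 were also 2-fold or more higher early in kidney marrow, ucp3, ctsba and ccdc151. The last, ccdc151, was under the filter there. The mitochondrial uncoupling protein gene ucp3 had 364 CPM early (353 to 375) and 106 CPM late (96.5 to 116), a log2 ratio of 1.73, and 2.29 in kidney marrow. The interferon-induced ubiquitin-like gene isg15 had 179 CPM (172 to 187) and 41.4 CPM (35.6 to 47.9), a log2 ratio of 1.99, against 0.85 in kidney marrow. The lysosomal protease gene ctsba had 82.7 and 20.9 CPM, a log2 ratio of 1.76, and 1.13 in kidney marrow. The cilia gene ccdc151 had 39.3 and 6.38 CPM, a log2 ratio of 1.96. Its ratio of 1.15 in kidney marrow came from 16.6 and 4.70 CPM.

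The remaining named genes with higher levels early were short of 2-fold higher, or lower, in kidney marrow. The actin-sequestering gene tmsb4x had 219 CPM early and 40.5 CPM late, a log2 ratio of 2.30, and -0.67 in kidney marrow. The profilin gene pfn1 had 74.3 and 14.3 CPM (2.04, and -0.42 in kidney marrow). The gene cd74a, which encodes the invariant chain of class II antigen presentation, had 43.6 and 6.38 CPM (2.1) and -0.88 in kidney marrow. The galectin gene lgals3b had 35.2 and 5.24 CPM (1.97, and 0.63 in kidney marrow), and si:dkey-203a12.2 had 53.8 and 2.28 CPM (3.01, and -0.90 in kidney marrow). The splicing factor symbol srsf3a, which stands on 2 identifiers, had 129 and 25.3 CPM (2.15). In kidney marrow this srsf3a entry was nearly absent, with 0.882 and 0.0825 CPM, under the filter, so its ratio of 0.21 there has little meaning. The myeloid factor gene cebpb had 36.9 and 5.92 CPM (1.94, and -1.14 in kidney marrow). The chemokine receptor gene cxcr4b, a member of the homing list, had 40.3 and 8.65 CPM (1.73, and -1.18 in kidney marrow). Of the named higher genes, bnip4, ccdc151, pfn1, cd74a, lgals3b, si:dkey-203a12.2, cebpb and cxcr4b passed the filter only through the early library.

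The summed markers of other blood cell types were higher in the early erythroid cells. Summed over each list, T-lineage markers had 8.69 CPM early and 4.78 CPM late, NK/ILC (natural killer or innate lymphoid) markers 29.2 and 14.8, and B or plasma cell markers 192 and 97.0. Macrophage markers had 194 and 138 CPM, neutrophil markers 33.8 and 4.78, and mast cell and eosinophil markers 12.9 and 2.73. Thrombocyte markers had 1221 and 955 CPM, progenitor markers 440 and 347, and dendritic markers 2.13 and 1.37. The thrombocyte list shares nfe2, and the progenitor list lmo2 and tal1, with the erythroid transcription factors. The sums of those lists thus include genes of red cells. Of the markers in the files, 1 of 11 T-lineage, 2 of 16 NK/ILC, 6 of 14 B or plasma cell, 0 of 14 macrophage and 0 of 10 neutrophil markers were at 0 in both libraries, as were all 6 bone and cartilage markers. Of the macrophage markers 2 passed the filter, cd74a and the protease gene lgmn, which had 125 and 130 CPM (-0.06). Erythroid markers were at 27672 and 27931 CPM. Of the lists outside blood, fibroblast markers were at 1.36 and 1.37 CPM and keratinocyte markers at 4.26 and 2.73 CPM. Ionocyte and pigment markers had 1.19 and 0.228 CPM each, muscle 1.02 and 0.228, endothelial 0.852 and 0.228, and neural and glial markers 0.256 and 0.228. Each of these last lists had 1 UMI late. Whether RNA from other cells, or doublets, gave part of the higher immune genes was not tested.

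**Figure D2:**
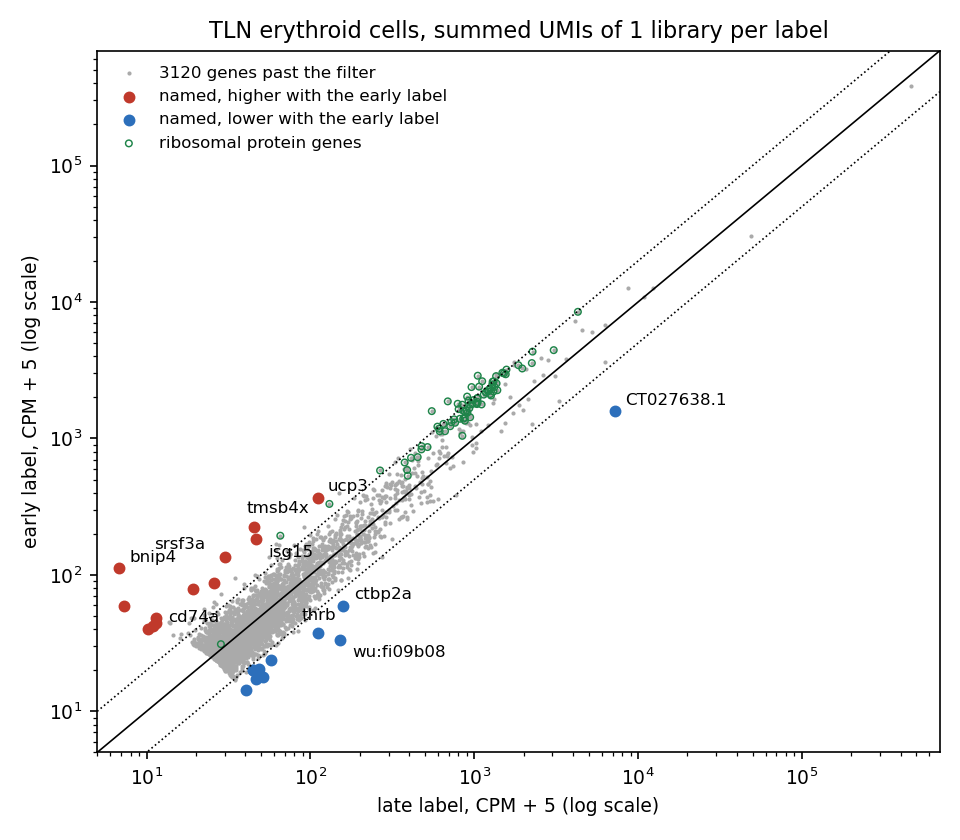
Level of each gene in TLN erythroid cells with the late label (x axis) and the early label (y axis), in CPM outside haemoglobin + 5, both axes logarithmic, with dotted lines at 2-fold and ribosomal protein genes ringed. Most of the 3120 genes lie between the lines, bnip4 lies far above (107 against 1.82 CPM) and CT027638.1 far below (1585 against 7182 CPM).

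Lower genes were fewer. The transcript CT027638.1 had 1585 CPM early and 7182 CPM late, a log2 ratio of -2.18, and wu:fi09b08 had 28.4 and 146 CPM, also -2.18. CT027638.1 was lower early in kidney marrow erythroid cells (-1.62), in intestine (-2.71), in thymus (-0.75) and in the other cells of kidney marrow (-1.65). The thyroid hormone receptor gene thrb had 32.6 and 107 CPM (-1.58), and the corepressor gene ctbp2a 54.5 and 154 CPM (-1.42). The aquaporin gene aqp12 had 12.8 and 46.5 CPM (-1.53). In kidney marrow aqp12 also had -1.53, but from 7.41 and 30.9 CPM, under the filter. The remaining named lower genes were si:ch211-214b16.4 (-1.49), cacna2d2a (-1.44), mdga2a (-1.40), CABZ01080568.1 (-1.28), wu:fc75a09 (-1.25), macrod2 (-1.16) and tbc1d8b (-1.15). These genes and aqp12 passed the filter only through the late library.

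The early against late ratios of the TLN were compared with those of kidney marrow erythroid cells, where 178 of 3316 genes (5.37%) were 2-fold or more higher early and 116 (3.5%) lower. Among 2201 genes that passed the filter in both tissues, 60 were higher early in the TLN and 81 in kidney marrow, and 14 in both, which is 23.3% of the first and 17.3% of the second. For lower genes the counts were 6, 11 and 1. The genes higher in one tissue and lower in the other were cxcr4b and cebpb. Both passed the filter in the TLN only through the early library. In kidney marrow cxcr4b had 378 CPM early and 863 late, and cebpb 745 and 1646. Neutrophil markers summed to 17540 CPM early and 27085 late in kidney marrow erythroid cells, against 33.8 and 4.78 in those of the TLN. The part of RNA from other cells in the kidney marrow values was not tested, for these genes or for tmsb4x, pfn1 and cd74a.

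Ribosomal protein genes formed the widest block of like direction in erythroid cells. Of 78 measured, all 78 had a log2 ratio above 0, 19 of them 2-fold or more, with a median of 0.88 beside 0.01 over all genes tested, of which 2.34% were 2-fold or more higher. The count of 19 was 4 at a threshold of 30% haemoglobin, 8 with CPM over all UMIs, 7 without zgc:163057 and si:ch211-5k11.8 in the total, and 42 with median-of-ratios scaling. The range ran from 0.13 for rps27l to 1.56 for rpl26, which had 189 CPM early and 60.6 CPM late, and rps26 had 1.53. In kidney marrow 69 of 79 were above 0, with a median of 0.23. Over the alternative settings, scaling included, the TLN median ran from 0.57 to 1.00 with 77 or 78 genes above 0. Genes encoded by mitochondria stood the other way, with 0 of 11 above 0 and a median of -0.43, and mt-co2, a subunit of cytochrome oxidase, had 1871 CPM early and 3294 CPM late (-0.81). The median ran from -0.63 to -0.30 over the alternative settings. In kidney marrow 5 of 11 were above 0, with a median of -0.00.

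**Figure D3:**
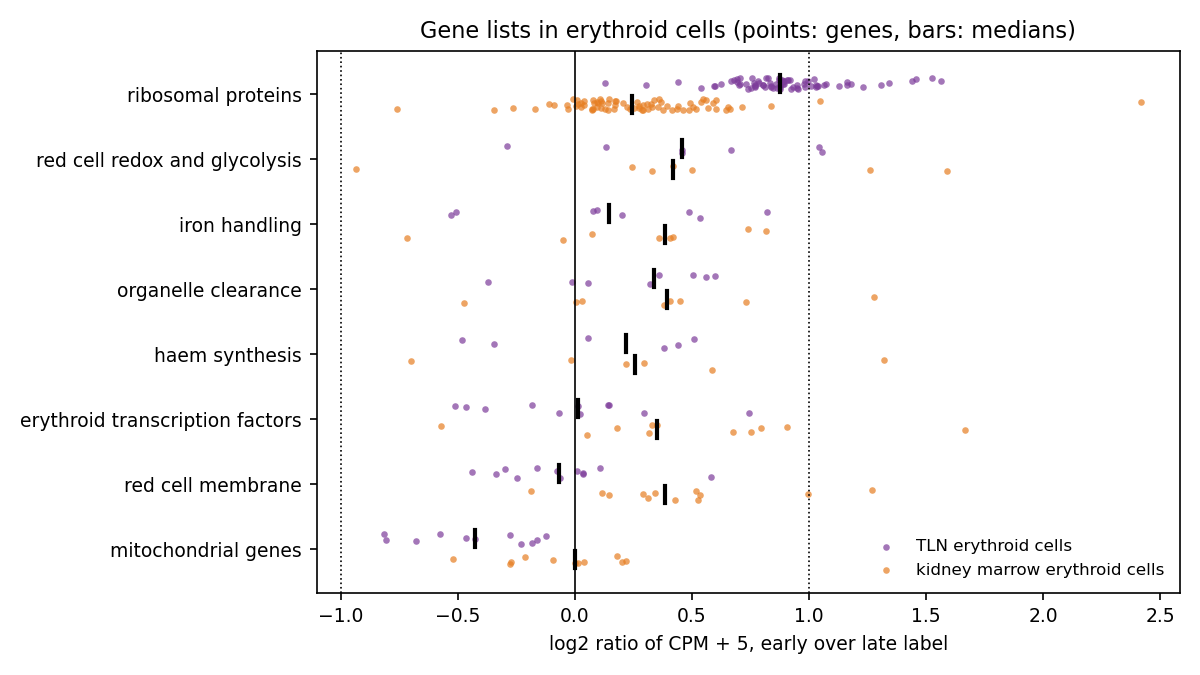
Log2 ratio (early over late label, x axis) of each measured member of each gene list (y axis) in TLN erythroid cells, with the median of each list as a bar and the kidney marrow values of the same genes below. All 78 ribosomal protein genes lie above 0 and all 11 mitochondrial genes below it.

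Haem synthesis and the red cell identity genes lay close to the median of all genes. None of 6 haem synthesis genes reached 2-fold (median 0.22), and alas2, the first enzyme of the pathway in red cells, had 3791 CPM early and 3648 CPM late (0.06). None of 11 erythroid transcription factors did either (median 0.01), and the master regulators gata1a (0.02) and klf1 (0.01) differed little. Of 12 membrane and skeleton genes none reached 2-fold (median -0.07), among them the anion exchanger gene slc4a1a (-0.30) and the carbonic anhydrase gene cahz (0.01).

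Iron handling genes (8 tested, median 0.15) held the ferritin gene fth1a at 0.54 and the transferrin receptor gene tfr1a at -0.53, with none past 2-fold. Of 8 organelle clearance genes none passed (median 0.34), with bnip3lb, a mitophagy receptor of red cells, at 0.32. Of 7 red cell redox and glycolysis genes 2 were 2-fold or more higher (median 0.46), and 0 with CPM over all UMIs, in cells of 50 to 60% haemoglobin or without zgc:163057 and si:ch211-5k11.8 in the total. The peroxiredoxin gene prdx2 had 709 and 339 CPM (1.05), and the lipid peroxide reductase gene gpx4a had 114 and 52.8 CPM (1.04), while the glycolysis gene pkma had -0.29. Both were higher early in kidney marrow too (1.26 and 1.59). Of 6 interferon-induced genes isg15 passed, with a list median of -0.01. Of 14 immediate early and heat shock genes fosab passed (74.7 and 34.4 CPM, 1.02), with a list median of 0.39. Of 8 antigen presentation genes cd74a passed (median 0.19). Over all 3120 genes tested in erythroid cells, 2.34% were 2-fold or more higher early.

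The makeup of haemoglobin differed as well. Of the haemoglobin UMIs of erythroid cells, hbba2 gave 2.61% early and 1.29% late, and hbaa2 gave 1.39% and 0.736%. The major alpha globin gene hbaa1 gave 40.8% and 35.4%, and the 2 genes that share the symbol hbba1 gave 45.1% and 51.3%, and 10.1% and 11.2%. In kidney marrow hbba2 was 9.05% and 9.49%, hbaa2 4.60% and 3.37%, and hbaa1 40.6% and 32.5%. The adult globin genes are near-identical copies, so reads may be split among them by the counting.

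The higher hbba2 share was also seen within cells of like haemoglobin share. In cells with 50 to 60% haemoglobin, hbba2 was 2.09% of haemoglobin UMIs early (1438 cells) and 0.704% late (1017 cells). In cells with at least 60% it was 2.76% (2362 cells) and 1.88% (484 cells). In erythroid-like cells under the 50% rule it was 1.09% and 0.285%. Embryonic globins were rare, with 747 early and 160 late UMIs of hbae5 and 227 and 35 of hbbe2. As shares of haemoglobin UMIs, hbae5 was 0.00364% early and 0.00249% late, and hbbe2 0.00111% and 0.000545%. The 2 genes that share the symbol hbae1.3 had 206 and 118 UMIs early and 3 each late. Their shares were 0.00100% and 0.000575% early and 4.67e-05% each late. The gene hbae3 had 0 UMIs early and 2 late. The symbol si:ch211-5k11.8, not counted as haemoglobin by the rule, took 13.9% of all erythroid UMIs early and 18.8% late, and 7.64% and 13.9% in kidney marrow.

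Among the cells under 50% haemoglobin, erythroid-like clusters held 21098 early (98.0%) and 20041 late cells (98.9%), with medians of 1055 and 1274 UMIs and haemoglobin shares of 32.3% and 26.0%. The sorted TLN material was thus mostly red cell RNA in both libraries, against the lymphoid name of the tissue. Whether these droplets hold whole red cells or free RNA was not tested. Outside those clusters stood 423 early and 232 late cells.

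Summed over all cells under 50% haemoglobin, 5576 genes passed the filter, 151 (2.71%) 2-fold or more higher early and 86 (1.54%) lower, with a median of -0.18. With median-of-ratios scaling 205 were higher and 48 lower. Within the erythroid-like clusters the counts were 80 and 93. Most of the highest genes led 1 unnamed sub-cluster with 24 early cells and 1 late cell. Of the 12 highest, all but si:ch211-14a17.10 passed the filter only through the early library. Among them si:dkeyp-75b4.10 had 471 CPM early and 6.39 late (log2 ratio 5.39), and si:ch211-14a17.10 had 528 and 20.6 CPM (4.38). Within the erythroid-like clusters their log2 ratios were 1.46 and 0.24, and those of the other 10 highest genes, si:dkey-203a12.9 the lowest of them, lay between 0.40 and 1.91.

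The lower genes of the cells under 50% haemoglobin were also lower in the erythroid-like clusters. Those clusters made up 98.0% of these cells early and 98.9% late, so both sets are largely the same cells. The cytochrome P450 gene cyp4v7 had 1 UMI early and 1124 UMIs late, the latter spread over 967 cells, and in erythroid cells 0 and 33.7 CPM. The steroid synthesis gene cyp11a1 had 6.25 and 48.8 CPM (-2.26), nexmifb 5.04 and 46.2 CPM (-2.35), and ahcy, which breaks down S-adenosylhomocysteine, 48.8 and 175 CPM (-1.74). The gene ctbp2a had 90.8 and 347 CPM (-1.88), with a UMI in 1511 early and 5162 late cells. CT027638.1 was lower here as well (-1.86). The genes cyp4v7, cyp11a1 and nexmifb passed the filter only through the late library.

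Of the 423 early and 232 late cells outside the erythroid-like clusters, 153 early (36.2%, 31.6 to 41.0) and 140 late (60.3%, 53.7 to 66.7) were T-lineage-like. The difference was -24.2 points (-32.0 to -16.0), and was smaller, at -11.0 points at clustering resolution 2 and -10.8 points without putative doublets. NK/ILC-like cells numbered 71 (16.8%) and 27 (11.6%), a difference of 5.15 points (-0.79 to 10.6). A UMI of the T-cell receptor sequence TCRaC was found in 17 early and 24 late T-lineage-like cells. It was also found in 4 early and 5 late NK/ILC-like cells, so it did not part the 2 classes. The T-lineage-like cells include a sub-cluster led by ccl20a.3, nitr4a, il23r and il17a/f3, with 43 early and 8 late cells. It had 5 T-lineage and 3 NK/ILC markers. Both lymphoid classes together were 53.0% and 72.0% of these cells, but 1.04% and 0.824% of all cells under 50% haemoglobin. Early minus late, the first of these shares differed by -6.17 points at clustering resolution 2 and by -6.39 points without putative doublets, smaller than with the main settings.

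The remaining cells were few. Neutrophil-like cells numbered 27 and 6, thrombocyte-like cells 29 and 5, macrophage-like cells 13 and 4, and B or plasma-like cells 7 and 6. Unnamed sub-clusters held 123 early (29.1%) and 44 late cells. Among them were 38 and 21 cells with both T-lineage markers and red cell genes. A further 44 and 11 cells were led by ccl25b, clu, rbp4 and sparc. This last sub-cluster had 4 T-lineage and 3 macrophage markers, too close for a name. The T-lineage-like shares above leave out the cells of both sub-clusters. The sub-clusters were built with the 2000 most variable genes outside haemoglobin, zgc:163057 and si:ch211-5k11.8. Other genes that differed between the libraries were not taken out, so cell numbers are given as a description.

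**Figure D4:**
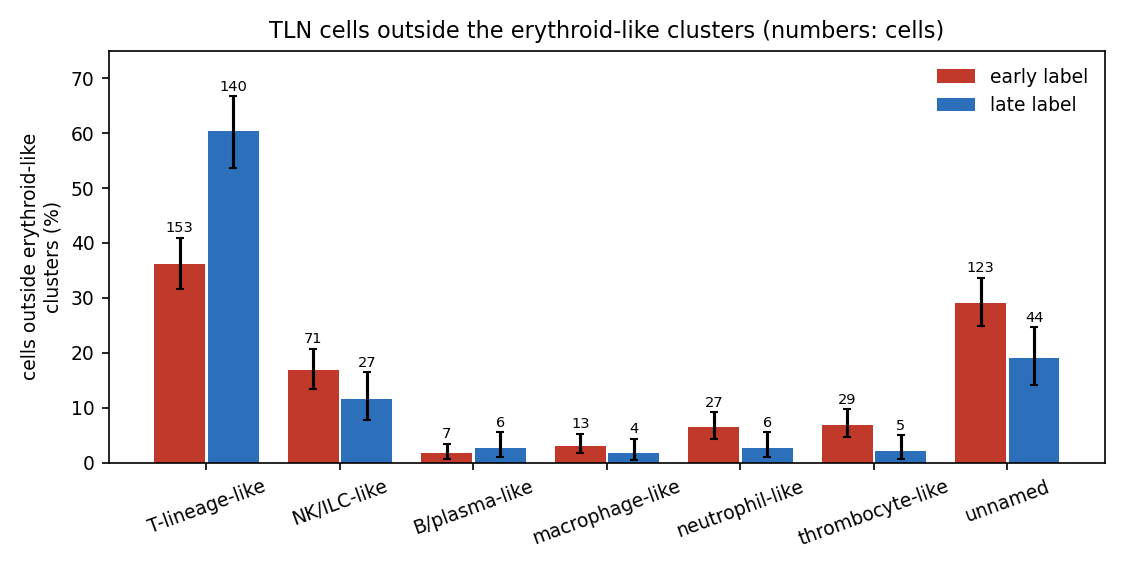
Share of each cell class (x axis) among the 423 early and 232 late TLN cells outside erythroid-like clusters (percent, y axis), with exact binomial 95% intervals and the number of cells above each bar. T-lineage-like cells are 36.2% early and 60.3% late, and the separate intervals overlap for each of the other classes except the unnamed cells. For neutrophil-like and thrombocyte-like cells the interval of the difference, early minus late, still lies above 0.

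Gene levels were compared over the 224 early and 167 late T-lineage-like and NK/ILC-like cells. Different sub-clusters held most of these cells. Most early cells were in those led by ccl20a.3 and il23r, by nkl.1, by tcrg, hsp90aa1.2, hsp70l and gata3, and by foxp3a and cd28. Most late cells were in the last 2 of these. A foxp3a UMI was found in only 6 early and 6 late cells of the whole set. Of 4854 genes that passed the filter, 171 (3.52%) were 2-fold or more higher early and 155 (3.19%) lower, with a median of -0.02. With median-of-ratios scaling 216 were higher and 115 lower. Haemoglobin gave 2.04% of the UMIs of these cells early and 1.16% late.

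Genes of type 3 lymphocytes, which make interleukin 17 at barriers, are given by their values, since few passed the filter. The chemokine gene ccl20a.3, whose product draws in such cells, had 1108 CPM early and 57.9 CPM late (log2 ratio 4.14). It was found in 42 early and 2 late cells, and 97.8% of the late UMIs came from 1 cell. The cytokine gene il17a/f3, which passed the filter only through the early library, had 93 UMIs early, in 10 cells, and 0 late, at least 29.0-fold higher with a floor of 3 UMIs for the library at 0. The type 3 regulator gene rorc had 212 and 107 CPM (0.95), short of 2-fold over both classes together. In T-lineage-like cells alone it had 204 UMIs early and 64 late, and in NK/ILC-like cells 149 and 103.

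Other higher genes rested on few cells. The type 2 cytokine gene il4 had 213 CPM early in 32 cells and 34.8 CPM late in 5 cells (2.45). The other type 2 genes had lower levels early: the regulator gene gata3 had 40.3 and 83.0 CPM (-0.96), and the cytokine gene il13, under the filter, had 10 and 25 UMIs. The receptor symbol nitr6b, which stands on more than 1 identifier, had 181 UMIs in 25 early cells and 0 late, at least 56.4-fold higher. The macrophage gene mpeg1.1 had 158 UMIs in 3 early cells, 70.9% of them from 1 cell, and 1 UMI late. The gene rasd1 had 135 UMIs in 2 early cells and cxcl11.1 128 in 1 early cell, both with 0 late. These genes and nitr6b passed the filter only through the early library. Of 20 cell cycle genes 3 passed the filter. The chromatin gene hmgb2a had 729 and 346 CPM (1.07) and the replication clamp gene pcna 141 and 65.6 CPM (1.05), while mki67, which passed only through the early library, had 110 and 5 UMIs, 80.9% of the early ones from 1 cell. The antioxidant gene gpx1a had 638 and 200 CPM (1.65), and the red cell markers cahz (1.14) and hemgn (1.04) were higher beside the higher haemoglobin.

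Heat shock genes were among the lowest in the early lymphoid cells. Of 24 immediate early and heat shock genes 7 were 2-fold or more lower early and 0 higher, with a median of -0.44. Over all 4854 genes tested, 3.19% were lower and 3.52% higher. The chaperone gene hsp90aa1.2 had 73.4 CPM early and 1622 late (-4.38), in 17 and 30 cells, and hsp70l had 18.0 and 201 CPM (-3.16), in 14 and 24 cells, with 51.0% of the late UMIs from 1 cell. The others were hsp70.1 (-2.33), hsp70.3 (-2.03), hsp70.2 (-1.56) and dnajb1b (-1.16), and the immediate early gene egr1, which was at the 2-fold limit. Such genes respond to handling and dissociation of tissue, and whether the handling of the 2 samples had a part in this was not tested.

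Of 9 T-lineage markers measured over both lymphoid classes together, 3 were 2-fold or more lower early and 1 higher. Of all 4854 genes, 3.19% were lower and 3.52% higher. The T-lineage-like class was named with these markers, so their levels are not independent of the choice of cells. The gene tcf7, a factor of T-cell development and memory, had 369 CPM early (340 to 399) and 804 late (761 to 850), a log2 ratio of -1.12. The T-cell identity gene bcl11ba had 61.3 and 154 CPM (-1.27), and foxp3a, the regulatory T-cell factor, 41.5 and 105 CPM (-1.24), in 6 early and 6 late cells, with 79.7% of the early and 63.8% of the late UMIs from 1 cell. Its paralog foxp3b stood the other way, with 47.5 and 22.5 CPM (0.93) in 8 early and 17 late cells. The T-cell co-receptor gene cd28 was higher early, with 157 and 74.7 CPM (1.02) in 39 early and 36 late cells. These levels mix the classes, as T-lineage-like cells were 153 of 224 early and 140 of 167 late cells. T-lineage-like cells alone had 1022569 early and 1218169 late UMIs outside haemoglobin. Of these tcf7 gave 600 and 1240, bcl11ba 102 and 240, foxp3a 69 and 163, and cd28 261 and 116. The part of the class mix in the ratios was not tested. The gene kif26ba had 0 UMIs early and 75 late, in 34 cells, at least 26.8-fold lower. Like hsp70l, it passed the filter only through the late library. The killer lysin gene nkl.1 had 355 and 736 CPM (-1.04), with 73.0% of the late UMIs from 1 cell.

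None of 8 homing genes reached 2-fold, but 6 of them lay below 0, with a median of -0.48 beside -0.02 over all genes tested. The lower ones included the chemokine receptor genes ccr7 (23.5 and 43.1 CPM, -0.76) and cxcr4a (311 and 473 CPM, -0.60). The gut and thymus homing receptor gene ccr9a had 2674 CPM early and 2538 late (0.07), in 197 and 145 cells. The chemokine receptor gene cxcr4b had -0.10. Of genes outside that list, the cytokine receptor gene il2rb 0.24, the kinase gene lck -0.16, the type 1 factor gene tbx21 0.15 and the perforin gene prf1.1 0.39. Of 17 antigen presentation genes 2 were 2-fold or more higher and 16 lay above 0 (median 0.45). Over all genes tested in these cells, 3.52% were 2-fold or more higher. Macrophage markers were also higher in these cells, 3 of the 5 that passed the filter by 2-fold or more, with 2562 CPM early and 1240 late in sum and 5 of 14 markers in the files at 0 in both libraries. The gene cd74a had a log2 ratio of 0.98 here and 0.00 in T-lineage-like cells alone. The part of the macrophage markers in the antigen presentation values was not tested. Of 79 ribosomal protein genes 1 was higher (median 0.05), where the median in erythroid cells was 0.88.

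**Figure D5:**
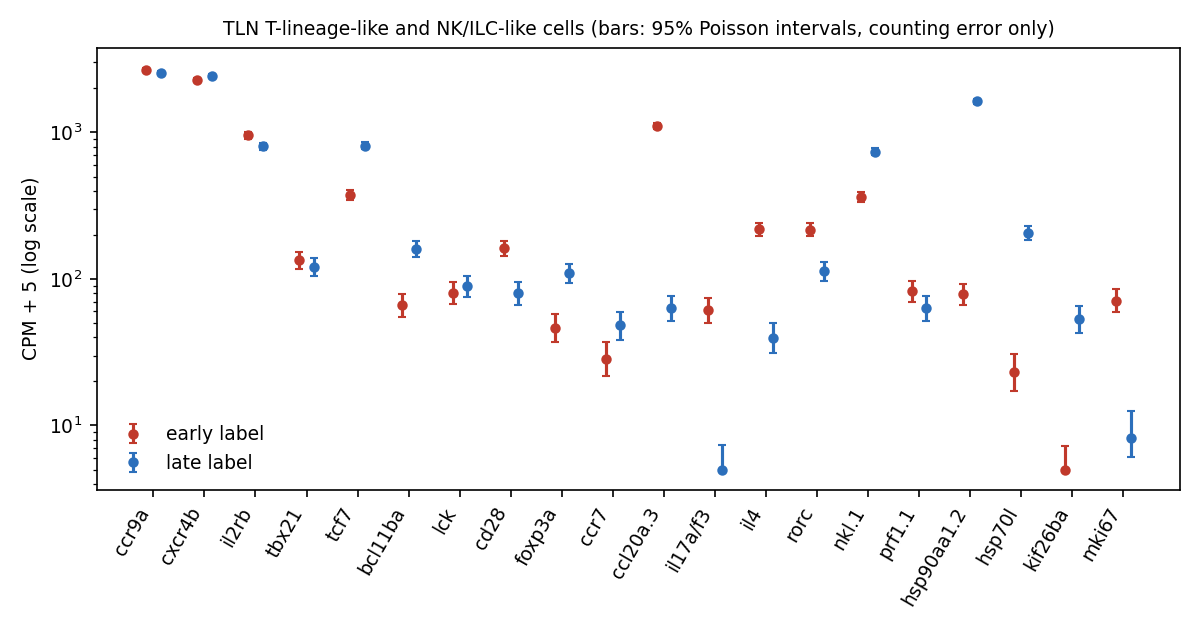
Level of chosen genes (x axis) in TLN T-lineage-like and NK/ILC-like cells (CPM outside haemoglobin + 5, logarithmic y axis) by label, with exact Poisson 95% intervals. Heat shock genes such as hsp90aa1.2 are lower early (73.4 against 1622 CPM), ccl20a.3 is higher (1108 against 57.9 CPM) and ccr9a is nearly level.

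The sort gene mCherry was detected across classes. A UMI was found in 55.2% of early and 45.6% of late erythroid cells, in 14.7% and 13.1% of erythroid-like cells under the 50% rule, in 50.3% and 58.6% of T-lineage-like cells and in 88.7% and 88.9% of NK/ILC-like cells. The erythroid-like cells under the rule had the fewest UMIs, and no class without the mark was sorted, so a background share for mCherry was not measured.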

How the data were processed

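Single-cell libraries were made with the Chromium Single Cell 3' kit v4 from cells freed by trituration of the tissue and sorted by FACS for mCherry, per the labels' protocols. The deposited matrices hold raw UMI (unique molecular identifier) counts per gene and barcode, which the authors made with Cell Ranger, version 9.0.0 per the file headers and 8.0.1 per the submitters' processing notes, which also name the build GRCz11. Cells were left out below 500 UMIs or 200 genes, or above 20% of UMIs from mitochondrial genes. Haemoglobin was the sum of the 15 features whose symbols start with hbaa, hbba, hbae or hbbe. Counts were summed per library and cell group. Levels are CPM, counts per 1000000 UMIs outside those features, log2 ratios use CPM + 5, and genes entered with a mean CPM of at least 20. Each label has 1 library, so no test was run and intervals (exact Poisson for sums, Clopper-Pearson for shares, 95%) cover counting error only. A gene is counted when the ratio is at least 2-fold. Named genes are the 12 highest and 12 lowest ratios (6 and 6 within a cell class) and members of gene lists. Cells under 50% haemoglobin were clustered without haemoglobin genes (scanpy 1.11.5, Leiden, resolution 1) and clusters without erythroid markers were clustered again, a second step chosen after seeing the data. A sub-cluster was named if it had at least 10 cells and at least 3 markers of a class, at least 2 more than of the next class. It was left unnamed where its 10 leading genes held more markers of another class. Putative doublets, scored with Scrublet in scanpy (2569 early and 1900 late barcodes), were kept and left out only as an alternative. The code was tested on simulated data. Members and gene lists were chosen with earlier results of these data known. Scaling, pseudocount, filters, thresholds, thinning and clustering resolution were varied.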

Additional observations from a re-analysis of the deposited data

Results flagged for a closer look

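The erythroid share was 8.11 points higher with the early label in the TLN and -2.89 points in kidney marrow, opposite directions at the 50% rule. At 60% haemoglobin or more the early label was the higher one in both tissues, with 2362 early and 484 late cells in the TLN and 1510 and 1 in kidney marrow. In erythroid cells cxcr4b had a log2 ratio of 1.73 in the TLN and -1.18 in kidney marrow, and cebpb 1.94 and -1.14. In the TLN both genes passed the filter only through the early library. With 1 library per group, none of these 3 differences between tissues was tested. The kidney marrow erythroid cells also held neutrophil markers at 17540 CPM early and 27085 late in sum, against 33.8 and 4.78 in the TLN. Of the added sequences outside the gene annotation, ddx41mRNA had 542 UMIs in the early and 487 in the late TLN library, and EYFP had 5 and 1.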

How the results depend on the processing

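No paired analysis was possible because each label has 1 library, which also left no replicate to leave out. The erythroid share was higher early under each threshold and filter tried, by 33.4 points at 30% haemoglobin, 1.19 at 70%, 15.5 with the strict cell filter and 12 with a wider haemoglobin set. At 70% no late cell was erythroid, so no gene comparison was made there. Erythroid counts (73 higher, 21 lower) became 19 and 10 with CPM over all UMIs, 121 and 12 with median of ratios, 44 and 5 with a pseudocount of 20, 131 and 51 at a mean CPM of 5 and 158 and 57 with no filter. The lower count alone moved to 53 at 30% haemoglobin, 60 in cells of 50 to 60%, 42 with a pseudocount of 1, 33 after thinning and 164 without zgc:163057 and si:ch211-5k11.8. For cells under 50% haemoglobin (151 and 86) the counts were 90 and 131 at 70%, 93 and 31 with a pseudocount of 20, 309 and 135 at a mean CPM of 5 and 352 and 145 with no filter. There the higher count was 449 at 30%, 90 as a mean over cells, 80 in erythroid-like cells and 90 with CPM over all UMIs, and the lower count 48 with median of ratios and 136 with a pseudocount of 1. Lymphoid counts (171 and 155) were 99 and 61 with a pseudocount of 20, 422 and 321 at a mean CPM of 5 and 513 and 368 with no filter, and 285 were higher as a mean over cells. The lymphoid share difference was -6.17 at resolution 2 and -6.39 without doublets, and as a share of all cells under the rule 0.458 points without doublets and 1.79 at 30%, where that of erythroid-like cells was -3.70. The median of immediate early and heat shock genes in erythroid cells was 0.39, and -0.074 at 30%, the 1 reversal. The causes were not tested.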
